A study of Danio rerio with 6 samples.

Results

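The lens crystallin genes of zebrafish embryos were taken as every row of the deposited expression table whose gene symbol begins cryaa, cryab, cryba, crybb or cryg and whose mean over the 6 libraries was at least 10 normalized reads. Of 21317 rows in the table, 41 carried such a symbol and 40 reached the mean. The 40 genes were 2 alpha crystallins, 11 beta crystallins, 25 gamma M crystallins and 2 gamma N crystallins. The weakest gene kept was crygmxl1, with a mean of 10.5 normalized reads, and the only gene left out was crygm2f, with a mean of 7.59. No row carried the symbol of a gamma S crystallin or the symbol cryaba, and weaker genes were not analysed here.

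The libraries came from a treatment experiment on embryos of the transgenic strain Tg(c-mybhyper:GFP), a line with an overactive c-myb and a GFP reporter that serves as a model of abnormally expanded myeloid blood cells. Embryos were kept from 30 hours post fertilization (hpf) in 60 µM tanshinone I (Tan I), a lipid-soluble diterpene of the medicinal plant Salvia miltiorrhiza, or in its solvent DMSO, and were collected at 72 hpf. There were 3 Tan I libraries and 3 DMSO libraries, all of the same strain and age, with total RNA taken from embryos. The number of embryos behind each library, and whether libraries of the same number shared a clutch or a day, is not given in the sources used here.

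Crystallins are the water-soluble proteins that fill the fibre cells of the eye lens and give it its transparency and refractive power. Alpha crystallins belong to the small heat shock proteins and keep other lens proteins from aggregating. Beta and gamma crystallins share a common fold and form the bulk of the structural protein, the beta crystallins as oligomers and the gamma crystallins as monomers. Gamma M crystallins are a methionine-rich group found in fish, whose tightly packed lenses must bend light strongly under water, and gamma N crystallins have features of both the beta and the gamma families.

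The table held between 15874701 and 24932190 recovered reads per library, with the Tan I libraries the deepest of the 6. All values below are read counts per gene divided by a size factor per library (normalized reads), so they are not corrected for transcript length and levels of different genes are not set against each other. The treatment was visible in cyp1a, a monooxygenase gene induced through the aryl hydrocarbon receptor. It had 21051, 25031 and 29308 normalized reads in the Tan I libraries, against 850, 482 and 366 in the DMSO libraries (log2 fold change 5.55 ± 0.22 SE, limma adjusted p = 3.19e-08). The labels name the tissue as embryonic cells, and the defining genes of muscle, neurons, liver, red blood cells and epidermis were all present in the table, so the libraries held many tissues beside the lens. In such libraries fewer lens cells and less RNA per lens cell cannot be told apart.

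With the libraries taken as unpaired, for no crystallin gene was a difference between Tan I and DMSO embryos detected beyond the spread between the libraries of a treatment. By limma on log2(normalized reads + 1), with Benjamini-Hochberg adjustment over 20836 genes, 0 of the 40 crystallins reached an adjusted p under 0.05, beside 536 genes (2.57%) over the whole table. At an unadjusted p under 0.05 the count was 1 of 40, beside 15.3% of all genes, and DESeq2 and edgeR on the recovered reads each called 0 of 40, beside 3.13% and 2.69% of all genes. The Tan I and the DMSO values of a crystallin overlapped in every case, with 0 of 40 groups apart, beside 21.1% of all genes. The median log2 fold change of the 40 genes was 0.058, beside -0.0067 over all tested genes.

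The 95% confidence interval of the fold change stayed within 2-fold in either direction for 36 of the 40 genes, including 11 of 11 beta crystallins and 21 of 21 copies of crygm2d. The 4 genes with wider intervals were cryaa, crygm5, crygmxl1 and crygn1. Of the 40 log2 fold changes, 24 were positive and 16 negative, and the signs were grouped by class. Of the crygm2d copies, 20 of 21 had a positive value, while 9 of 11 beta crystallins, both alpha crystallins and both gamma N crystallins had a negative value.

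**Figure D1:**
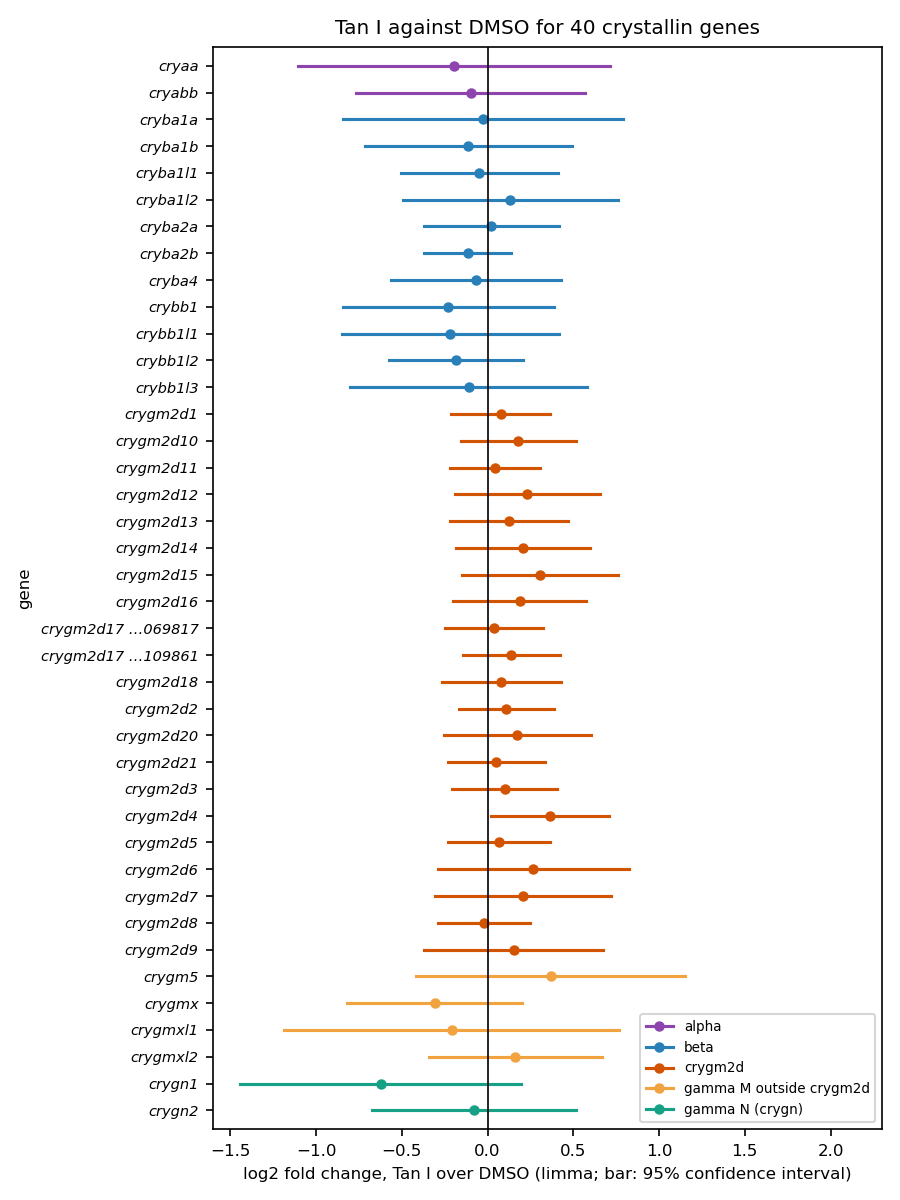
Log2 fold change, Tan I over DMSO, of each of the 40 crystallin genes (points, limma) with its 95% confidence interval (bars), coloured by class, with genes down the vertical axis. Only the interval of crygm2d4, 0.02 to 0.71, lies wholly on one side of 0, and its adjusted p was 0.301.

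The alpha crystallins were the weakest class in reads. The gene cryaa encodes alpha A crystallin, the lens chaperone. It had 182, 135 and 43.9 normalized reads in the Tan I libraries, against 184, 114 and 77.9 in the DMSO libraries. Its first replicates were almost equal, Tan I replicate 3 was the lowest of the 6 libraries, and the groups overlapped. The log2 fold change of cryaa was -0.20 ± 0.42 (SE, adjusted p = 0.870 by limma), with a 95% confidence interval of -1.10 to 0.71.

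The gene cryabb, a zebrafish counterpart of the mammalian alpha B crystallin gene, had 23.3, 28.1 and 14.6 normalized reads in the Tan I libraries, against 19.7, 21.9 and 27.8 in the DMSO libraries. Its highest and its lowest value were both in Tan I libraries. These values rest on 17 to 30 reads per library, and the log2 fold change was -0.10 ± 0.31 (SE, adjusted p = 0.913 by limma). Whether the cryabb reads came from the lens or from other tissues was not tested. In the RefSeq annotation of the assembly GRCz12tu, cryabb lies next to hspb2, another small heat shock protein gene. The neighbour hspb2 had 184, 143 and 130 normalized reads in the Tan I libraries, against 114, 129 and 142 in the DMSO libraries, and it did not pass the test either (log2 fold change 0.23 ± 0.16 SE, limma adjusted p = 0.511).

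The beta crystallins comprised 7 genes of the acidic A type (cryba) and 4 of the basic B type (crybb). Their summed level was 25658, 23491 and 13360 normalized reads in the Tan I libraries, against 27751, 23807 and 16227 in the DMSO libraries. In each treatment replicate 1 was the highest and replicate 3 the lowest, and the range within a treatment was wider than the distance between the treatments. The sums averaged 20836 ± 6565 in Tan I embryos and 22595 ± 5856 in DMSO embryos (SD, n = 3 each). The highest library exceeded the lowest 1.92-fold in Tan I embryos and 1.71-fold in DMSO embryos, while counting error alone was at most 0.828% of a sum. The log2 fold changes of the 11 genes ran from -0.23 to 0.13 with a median of -0.11.

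The 3 beta crystallins with the most reads were all of the B type. The first, crybb1l2, had 4551, 4843 and 2975 normalized reads in the Tan I libraries, against 5607, 4964 and 3459 in the DMSO libraries. Tan I replicates 1 and 2 lay between the DMSO values, and Tan I replicate 3 was below every DMSO library. The fold change of crybb1l2 on the log2 scale was -0.18 ± 0.18 (SE), with an adjusted p of 0.676 by limma.

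The second, crybb1l1, had 4060, 3571 and 1771 normalized reads in the Tan I libraries, against 4854, 3886 and 2143 in the DMSO libraries (log2 fold change -0.22 ± 0.29 SE, limma adjusted p = 0.782). The third, crybb1, had 3525, 3519 and 1568 normalized reads in the Tan I libraries, against 4322, 3464 and 2090 in the DMSO libraries (log2 fold change -0.23 ± 0.28 SE, limma adjusted p = 0.761). For both genes DMSO replicate 1 was the highest library and Tan I replicate 3 the lowest, with the remaining libraries mixed between the treatments. In crybb1l1, as in crybb1l2, each Tan I library was lower than the DMSO library of the same number. The value of crybb1 was the lowest fold change of the class.

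The highest fold change of the class belonged to an A type gene, cryba1l2. It had 184, 158 and 84.3 normalized reads in the Tan I libraries, against 175, 131 and 81.2 in the DMSO libraries. Both replicates 3 were low and the groups overlapped almost completely (log2 fold change 0.13 ± 0.29 SE, limma adjusted p = 0.872). The gene with the narrowest interval of the class, cryba2b, had 2892, 2741 and 2035 normalized reads in the Tan I libraries, against 2810, 2987 and 2449 in the DMSO libraries. Its 95% confidence interval, -0.37 to 0.14 on the log2 scale, spans 0.

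The beta crystallin genes are in part arranged side by side. By RefSeq (GRCz12tu), 8 of the 11 lie beside another beta crystallin gene, in the pairs crybb1 with cryba4, crybb1l1 with cryba1l1, crybb1l2 with cryba1l2 and crybb1l3 with cryba1a. Each pair joins a basic and an acidic member. The log2 fold changes were -0.23 for crybb1 and -0.07 for cryba4, -0.22 for crybb1l1 and -0.05 for cryba1l1, -0.18 for crybb1l2 and 0.13 for cryba1l2, and -0.11 for crybb1l3 and -0.03 for cryba1a. In each pair the basic member had the lower value, and none of these differences within a pair was tested.

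The gamma M crystallins made up the largest class, and 21 of their 25 rows were copies of crygm2d. The authors kept only reads with a unique place in the genome, so near-identical copies can lose or exchange reads and the level of a single copy is uncertain. By RefSeq, the 19 crygm2d copies that could be matched all lie in a tandem run, next to another gamma M crystallin gene. Their order in this run, from the crygm2e end to the crygm2f end, begins with crygm2d13, crygm2d11 and crygm2d15 and closes with crygm2d10, crygm2d2 and crygm2d1. The log2 fold changes were 0.12 for crygm2d13, 0.05 for crygm2d11 and 0.30 for crygm2d15 at the start of the run, and 0.18 for crygm2d10, 0.11 for crygm2d2 and 0.08 for crygm2d1 at its close. None of the 6 passed the test. The 2 unmatched rows both carried the symbol crygm2d17.

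Summed over the 21 copies, crygm2d had 54407, 40793 and 31365 normalized reads in the Tan I libraries, against 34233, 41383 and 38065 in the DMSO libraries. The highest and the lowest of the 6 libraries were both Tan I libraries, with the DMSO libraries between them. The sums averaged 42188 ± 11585 in Tan I embryos and 37894 ± 3578 in DMSO embryos (SD, n = 3 each). The highest library exceeded the lowest 1.73-fold in Tan I embryos and 1.21-fold in DMSO embryos, beside a counting error of at most 0.581%. With the copies summed to 1 row before the fit, which removes any exchange of reads between them but not the loss of reads with several places, the log2 fold change was 0.12 ± 0.15 (SE, adjusted p = 0.759 by limma), with a 95% confidence interval of -0.21 to 0.45.

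**Figure D2:**
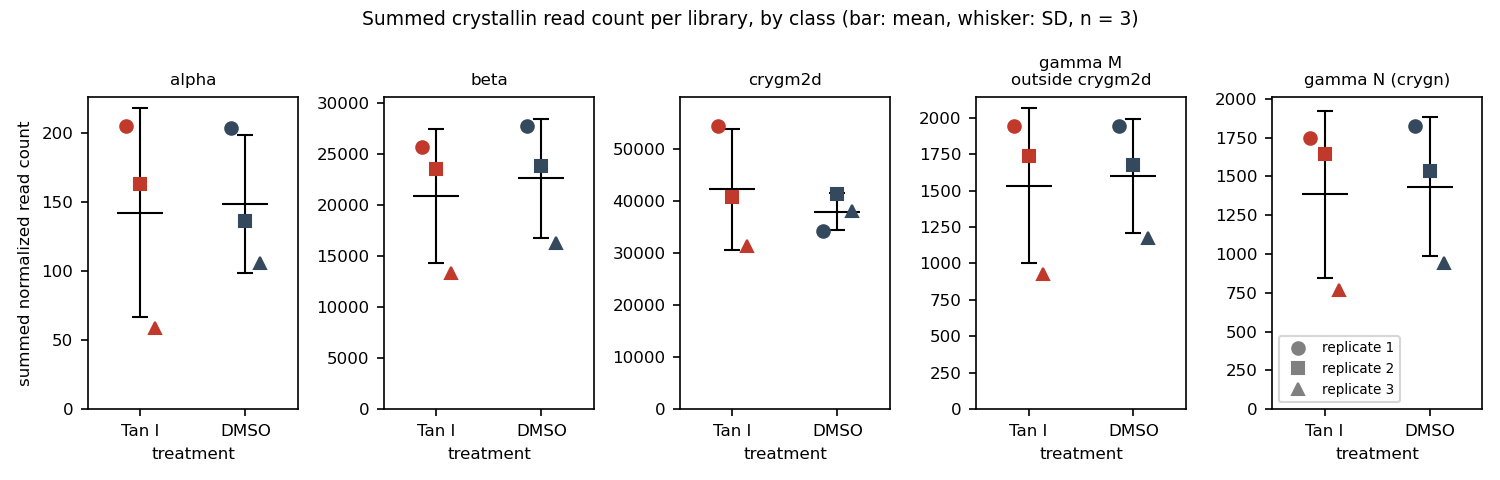
Summed normalized read count of each crystallin class (vertical axes, each starting at 0 with its own scale) in the 3 Tan I and the 3 DMSO libraries (horizontal axes), with the mean (bar) and SD (whisker) of each treatment and a marker shape per replicate number. Tan I replicate 3 is the lowest library in all 5 panels, and in the crygm2d panel the DMSO libraries lie between 34233 and 41383, inside the Tan I range of 31365 to 54407.

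The 3 copies with the most reads were each highest in Tan I replicate 1. The copy crygm2d10 had 5940, 4332 and 3515 normalized reads in the Tan I libraries, against 3322, 4517 and 4161 in the DMSO libraries (log2 fold change 0.18 ± 0.16 SE, limma adjusted p = 0.633). The copy crygm2d8 had 5159, 4001 and 3362 normalized reads in the Tan I libraries, against 3803, 4577 and 4171 in the DMSO libraries (log2 fold change -0.02 ± 0.12 SE, limma adjusted p = 0.955). The lowest library was DMSO replicate 1 for crygm2d10 and Tan I replicate 3 for crygm2d8.

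The copy crygm2d17 with the identifier ENSDARG00000109861 had 4138, 3469 and 2660 normalized reads in the Tan I libraries, against 2697, 3364 and 3161 in the DMSO libraries (log2 fold change 0.14 ± 0.13 SE, limma adjusted p = 0.666). The other row with this symbol, ENSDARG00000069817, had 2997, 2241 and 1849 normalized reads in the Tan I libraries, against 2074, 2429 and 2282 in the DMSO libraries (log2 fold change 0.04 ± 0.13 SE, limma adjusted p = 0.926). For both rows the highest and the lowest library were Tan I replicates 1 and 3, with the DMSO libraries between them.

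The highest fold change within the crygm2d copies was that of crygm2d4, and it was the only crystallin with an unadjusted p under 0.05. It had 2678, 1886 and 1474 normalized reads in the Tan I libraries, against 1358, 1640 and 1569 in the DMSO libraries. Tan I replicates 1 and 2 were above each DMSO library, whereas Tan I replicate 3 was below 2 of them. The log2 fold change was 0.36 ± 0.16 (SE), with an unadjusted p of 0.0405 and an adjusted p of 0.301 by limma. The lowest fold change was that of crygm2d8, and the values of the 21 copies together ran from -0.02 to 0.36 with a median of 0.14.

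Since the copies can exchange reads, each was also expressed as a share of the crygm2d sum of its own library, which takes out the difference in the total between libraries. A copy held between 0.588% and 11.2% of the sum. The shares of Tan I and DMSO libraries did not overlap for 2 of 21 copies (9.52%). By normalized reads, which are another measure than shares, the groups did not overlap for 21.1% of all tested genes. The 2 percentages are therefore not directly comparable. The share of crygm2d4 was 4.92%, 4.62% and 4.70% in the Tan I libraries, against 3.97%, 3.96% and 4.12% in the DMSO libraries, a difference of 0.73 percentage points.

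The share of crygm2d8 was 9.48%, 9.81% and 10.7% in the Tan I libraries, against 11.1%, 11.1% and 10.96% in the DMSO libraries, a difference of -1.04 percentage points. These copies were also the ones at the ends of the fold change range. Shares and fold changes come from the same reads, so neither bears out the other. For the other 19 copies the shares overlapped, and the differences lay between -0.34 points for crygm2d17 ENSDARG00000069817 and 0.40 points for crygm2d10. The shares were not tested, and the part that exchanged reads have in them was not tested.

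The 4 gamma M crystallins outside crygm2d were crygmx, crygmxl1, crygmxl2 and crygm5. The gene crygmx had 939, 874 and 487 normalized reads in the Tan I libraries, against 1204, 987 and 637 in the DMSO libraries. As in crybb1l1 and crybb1l2, each Tan I library was lower than the DMSO library of the same number, but the groups overlapped (log2 fold change -0.31 ± 0.24 SE, limma adjusted p = 0.581). This was the lowest fold change of the gamma M class.

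By RefSeq, crygmx lies directly beside crygmxl2. That neighbour had 939, 816 and 416 normalized reads in the Tan I libraries, against 712, 653 and 488 in the DMSO libraries. Here Tan I replicates 1 and 2 were the highest libraries and Tan I replicate 3 the lowest (log2 fold change 0.16 ± 0.23 SE, limma adjusted p = 0.799). The fold changes of the neighbours thus had opposite signs, and the difference between them was not tested.

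The gene crygm5 had the highest fold change of all 40 crystallins, at low counts. It had 48.2, 32.8 and 21.5 normalized reads in the Tan I libraries, against 16.2, 23.1 and 41.2 in the DMSO libraries. The values rest on 14 to 62 reads, the groups overlapped widely, and the log2 fold change was 0.37 ± 0.36 (SE, adjusted p = 0.683 by limma). The gene at the low limit of the selection, crygmxl1, had 14.0, 12.2 and 4.30 normalized reads in the Tan I libraries, against 12.7, 10.9 and 8.90 in the DMSO libraries (log2 fold change -0.21 ± 0.45 SE, limma adjusted p = 0.871).

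The gamma N crystallins differed widely in reads. The gene crygn2 had 1736, 1631 and 755 normalized reads in the Tan I libraries, against 1809, 1500 and 930 in the DMSO libraries (log2 fold change -0.08 ± 0.28 SE, limma adjusted p = 0.922). As in the beta sum, replicate 1 was the highest and replicate 3 the lowest library in each treatment. The gene crygn1 had 11.7, 12.2 and 12.9 normalized reads in the Tan I libraries, against 17.3, 34.0 and 12.2 in the DMSO libraries. It had the lowest fold change of the 40 crystallins, -0.62 ± 0.38 on the log2 scale (SE, adjusted p = 0.467 by limma), and it rests on 11 to 28 reads per library, with DMSO replicate 2 above the rest.

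Many crystallins were high or low in the same libraries of a treatment. Tan I replicate 3 was the lowest of the 6 libraries for 32 of 40 crystallins, beside 13.5% of all tested genes, and Tan I replicate 1 was the highest for 29 of 40, beside 20.9%. By class, Tan I replicate 3 was the lowest for 17 of 21 crygm2d copies, 9 of 11 beta crystallins and both alpha crystallins. Tan I replicate 1 was the highest for 21 of 21 crygm2d copies and for 5 of 11 beta crystallins. The SD of the log2 values was larger in Tan I than in DMSO libraries for 37 of 40 crystallins, beside 51.1% of all tested genes. The 40 genes were measured in the same 6 libraries and are largely genes of the same tissue, so they are not independent of each other.

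**Figure D3:**
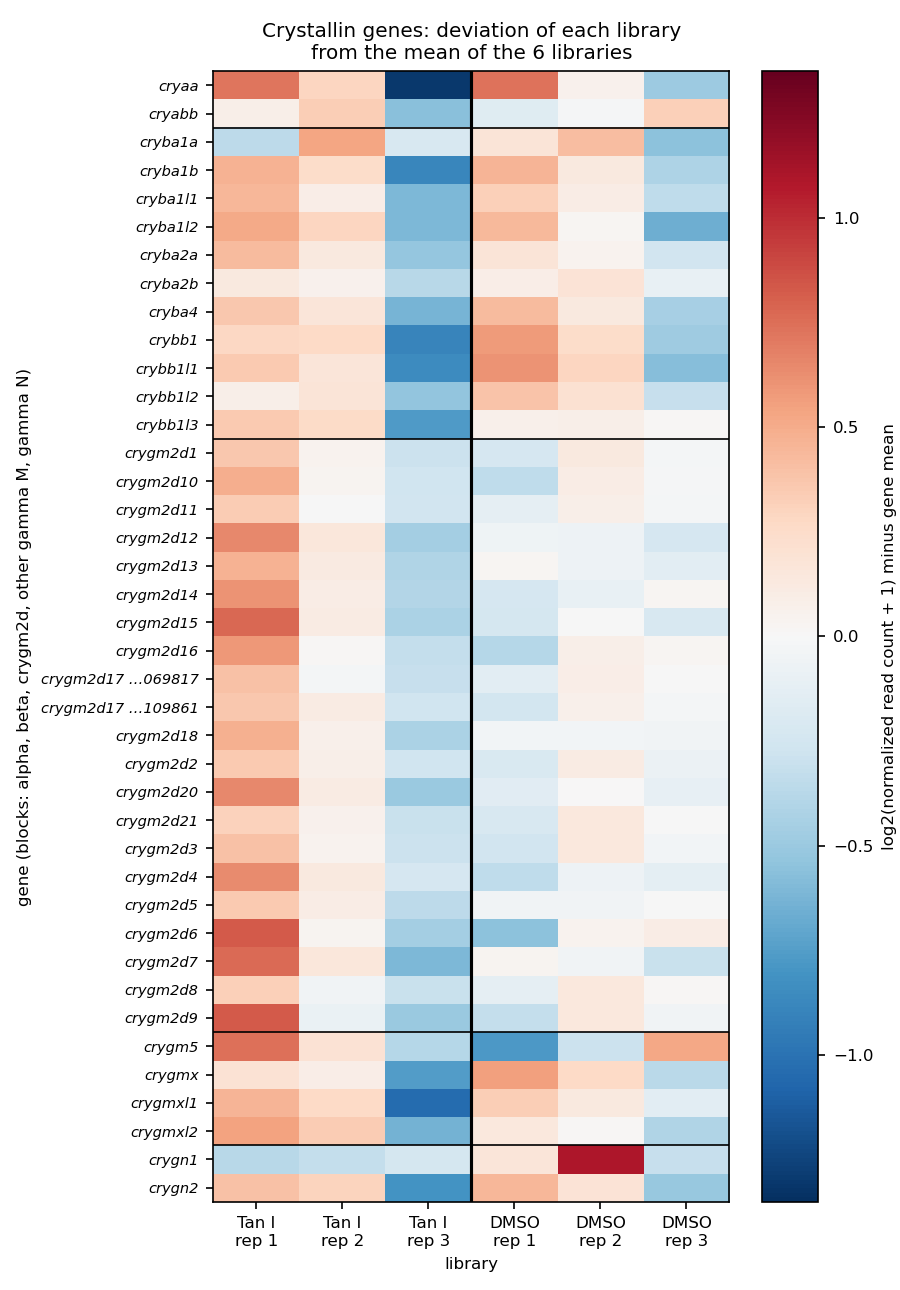
Deviation of each library (columns) from the mean of the 6 libraries for each crystallin gene (rows, in blocks by class), in units of log2(normalized reads + 1), red above and blue below the gene mean. The column of Tan I replicate 1 is red in most rows and that of Tan I replicate 3 blue, the lowest library for 32 of 40 genes, while DMSO replicate 1 is red for most beta crystallins and blue for most crygm2d copies.

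Among the DMSO libraries the beta and the crygm2d genes had different orders. DMSO replicate 3 was the lowest DMSO library for 11 of 11 beta crystallins and for 4 of 21 crygm2d copies, beside 36.0% of all tested genes. DMSO replicate 1 was the highest DMSO library for 8 of 11 beta crystallins and for 3 of 21 crygm2d copies, beside 37.0% of all tested genes, and it was the lowest DMSO library for 17 of 21 crygm2d copies. The ratio of the crygm2d sum to the beta sum was 2.12, 1.74 and 2.35 in Tan I replicates 1 to 3, against 1.23, 1.74 and 2.35 in DMSO replicates 1 to 3. The ratio was nearly equal between treatments for replicates 2 and 3 and differed for replicate 1, and the groups overlapped. Whether libraries of the same number belong together is not given in the sources used here. In all, the crystallins took 0.433%, 0.354% and 0.251% of the normalized reads of the Tan I libraries, against 0.336%, 0.356% and 0.300% of those of the DMSO libraries.

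The sign of the crystallin medians depended on single libraries. Without Tan I replicate 3, the lowest library, the median log2 fold change of the 40 genes was 0.28, and without Tan I replicate 1, the highest, it was -0.12. For the crygm2d copies these medians were 0.35 and -0.08, and for the beta crystallins 0.23 and -0.27. Without DMSO replicate 1 the beta median was 0.06, and without DMSO replicate 3 it was -0.31. Leaving out Tan I replicate 3 was also the only omission that brought crystallins past the threshold. It gave 6 of 40 with an adjusted p under 0.05 by limma, beside 3.40% of all tested genes (2.67% higher in Tan I embryos), namely crygm2d4, crygm2d7, crygm2d12, crygm2d15, crygm2d20 and crygmxl2. Their log2 fold changes in that fit lay between 0.47 and 0.59 and all 6 were higher in Tan I embryos. No crystallin passed when any of the other 5 libraries was left out.

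**Figure D4:**
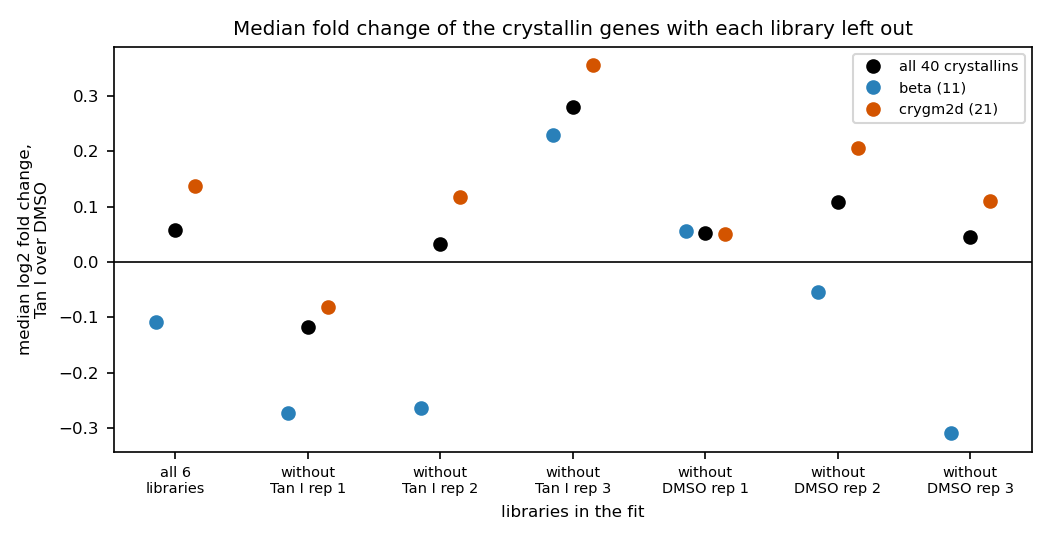
Median log2 fold change, Tan I over DMSO (vertical axis), of all 40 crystallins, the 11 beta crystallins and the 21 crygm2d copies with all 6 libraries and with each library left out in turn (horizontal axis). The medians of all 3 sets are above 0 without Tan I replicate 3 and below 0 without Tan I replicate 1, at 0.28 and -0.12 for all 40 genes.

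The other structural genes of lens fibre cells were also mostly lowest in replicate 3 of their treatment. Of 16 such genes listed, 15 were tested. By limma 0 passed the test and 0 had an unadjusted p under 0.05, beside 2.57% and 15.3% of all tested genes. DESeq2 and edgeR also called 0 of 15, beside 3.13% and 2.69% of all tested genes. Tan I replicate 3 was the lowest of the 6 libraries for 11 of 15, beside 13.5% of all tested genes, and DMSO replicate 3 was the lowest DMSO library for 13 of 15, beside 36.0%. The median log2 fold change of the 15 genes was -0.24, with 11 negative and 4 positive values. The water channel gene mipb, which encodes an aquaporin of the fibre cell membrane, had 875, 942 and 565 normalized reads in the Tan I libraries, against 1410, 997 and 773 in the DMSO libraries (log2 fold change -0.41 ± 0.20 SE, limma adjusted p = 0.366). The beaded filament gene bfsp2 had 369, 274 and 128 normalized reads in the Tan I libraries, against 217, 236 and 172 in the DMSO libraries (log2 fold change 0.19 ± 0.28 SE, limma adjusted p = 0.810). In bfsp2 the highest and the lowest library were Tan I replicates 1 and 3, and without Tan I replicate 3 it passed the test (log2 fold change 0.62, limma adjusted p = 0.0475).

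The connexin gene gja3, which builds gap junctions between fibre cells, had 23.3, 25.3 and 29.2 normalized reads in the Tan I libraries, against 28.9, 55.9 and 36.7 in the DMSO libraries (log2 fold change -0.58 ± 0.27 SE, limma adjusted p = 0.342). The nuclease gene dnase1l1l, which in zebrafish takes part in the loss of organelles from fibre cells, had 54.4, 30.0 and 27.5 normalized reads in the Tan I libraries, against 34.7, 19.4 and 15.6 in the DMSO libraries (log2 fold change 0.67 ± 0.34 SE, limma adjusted p = 0.377). These were the ends of the range of the fibre genes, both at low counts and both with overlapping groups.

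Of 12 transcription factor genes known from lens development, 1 was called, beside 2.57% of all tested genes, and their median log2 fold change was -0.05. DESeq2 and edgeR each called the same 1 of 12, beside 3.13% and 2.69% of all tested genes. The called gene was pax6a, which takes part in eye formation and is active in the retina and brain as well as the lens. It had 1269, 1347 and 1329 normalized reads in the Tan I libraries, against 1580, 1674 and 1594 in the DMSO libraries, with no overlap (log2 fold change -0.30 ± 0.07 SE, limma adjusted p = 0.0313). The call was lost when any library other than Tan I replicate 3 was left out, with adjusted p from 0.0607 without DMSO replicate 1 to 0.204 without DMSO replicate 2 by limma, while the log2 fold change stayed between -0.31 and -0.27 over the 6 omissions. It was also lost when the values were scaled to the total without the crystallins (log2 fold change -0.28, limma adjusted p = 0.0504) and without the mean-variance trend (limma adjusted p = 0.165). The paralog pax6b had 979, 1110 and 1158 normalized reads in the Tan I libraries, against 1164, 1304 and 1216 in the DMSO libraries. Its groups did not overlap either, but it did not pass (log2 fold change -0.18 ± 0.08 SE, limma adjusted p = 0.301). Of the 12 factor genes, 2 had groups that did not overlap, beside 21.1% of all tested genes. At an unadjusted p under 0.05 by limma the count was 3 of 12, beside 15.3%. Tan I replicate 3 was the lowest of the 6 libraries for 3 of the 12 factor genes, beside 13.5% of all tested genes.

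Positive values with the smallest p among the factor genes were those of mafbb and foxe3. The gene mafbb had 574, 378 and 306 normalized reads in the Tan I libraries, against 395, 321 and 310 in the DMSO libraries (log2 fold change 0.25 ± 0.18 SE, limma adjusted p = 0.553). The gene foxe3, a regulator of the lens epithelium, had 13.2, 23.4 and 17.2 normalized reads in the Tan I libraries, against 27.7, 12.1 and 7.79 in the DMSO libraries (log2 fold change 0.31 ± 0.43 SE, limma adjusted p = 0.789). In foxe3 the highest and the lowest library were both DMSO libraries, and its value was -0.07 without DMSO replicate 3.

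Genes listed for other parts of the eye were measured in the same whole-embryo libraries. Whether their reads came from the eye or from other tissues was not tested. Of 25 photoreceptor genes tested, 3 were higher and 11 lower in Tan I embryos, beside 2.07% and 0.504% of all tested genes, with a median log2 fold change of -0.37. With a library left out the count of photoreceptor genes called ran from 9 without DMSO replicate 2 to 13, and without the mean-variance trend of limma it was 4. Of 12 pigment epithelium genes 5 were higher and 0 lower, with a median of 0.33, and 0 were called without Tan I replicate 2, without DMSO replicate 2 or without the trend. Of 19 other retinal genes 3 were higher and 1 lower, with a median of -0.07, and 0 were called without DMSO replicate 2 or without the trend. In these named fits the share of all tested genes called was also below the 2.57% of the main fit. It was 1.02% with DMSO replicate 2 omitted, 1.24% with Tan I replicate 2 omitted and 0.792% with the trend off. DESeq2 called 15 photoreceptor, 5 pigment epithelium and 4 other retinal genes, beside 3.13% of all tested genes. By edgeR these counts were 14, 5 and 4, beside 2.69%. Whether the lists differ from the crystallins in how often they were called was not tested. The rod opsin gene rho had 19237, 18954 and 20072 normalized reads in the Tan I libraries, against 33947, 32210 and 30429 in the DMSO libraries (log2 fold change -0.73 ± 0.07 SE, limma adjusted p = 8.54e-05). Among the 3 photoreceptor genes called higher, pde6c had 6191, 6029 and 5935 normalized reads in the Tan I libraries. It had 4572, 4257 and 3988 in the DMSO libraries (log2 fold change 0.50 ± 0.07 SE, limma adjusted p = 0.00100). Measured as the median deviation from each gene's mean on the log2 scale, the photoreceptor genes stood at -0.22, -0.16 and -0.13 in the Tan I libraries, against 0.14, 0.17 and 0.13 in the DMSO libraries. The same measure was 0.35, 0.17 and -0.61 in the Tan I libraries, against 0.38, 0.13 and -0.42 in the DMSO libraries, for the beta crystallins. For crygm2d it was 0.48, 0.07 and -0.32 in the Tan I libraries, against -0.22, 0.07 and -0.02 in the DMSO libraries. Whether the amount of lens in a library has a part in the crystallin spread was not tested.

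**Figure D5:**
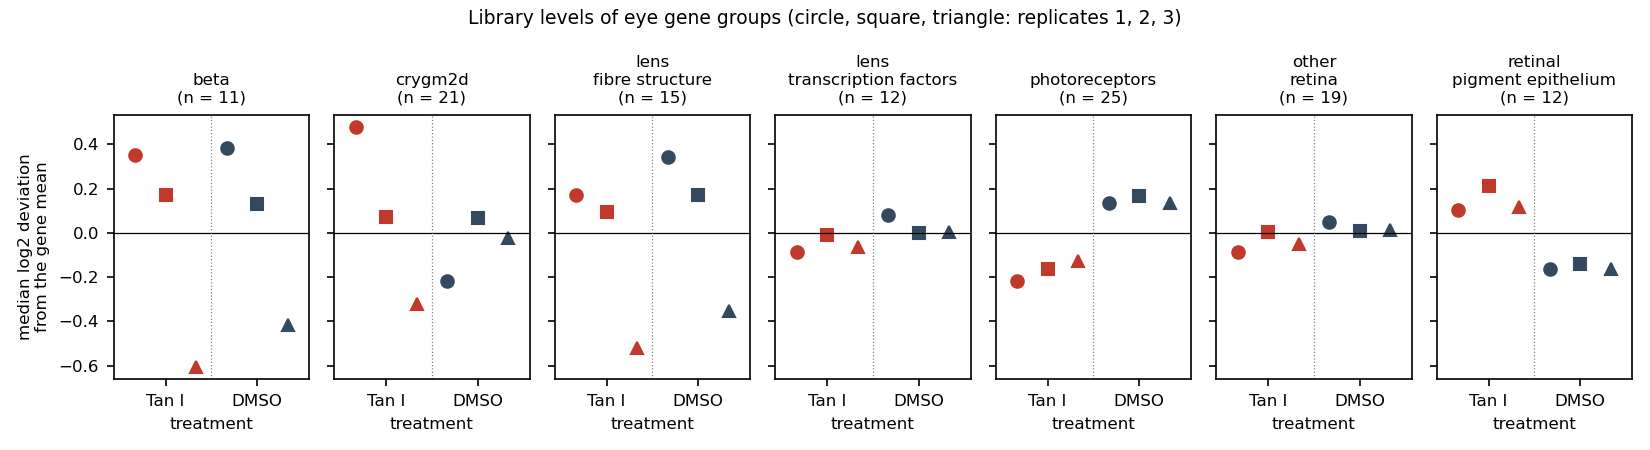
Median deviation from the gene mean on the log2 scale (vertical axis) in each library for beta crystallins, crygm2d copies and 5 other lists of eye genes, with Tan I libraries left and DMSO libraries right in each panel and a marker shape per replicate number. The beta and lens fibre panels spread widely within each treatment. Beta crystallins run from -0.61 to 0.35 in Tan I and from -0.42 to 0.38 in DMSO libraries. The crygm2d panel spreads more widely within Tan I than within DMSO. The photoreceptor panel separates the treatments, with -0.22 to -0.13 in Tan I and 0.13 to 0.17 in DMSO libraries.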

How the data were processed

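RNA-seq values of 6 whole-embryo libraries were used, 3 of embryos in Tan I and 3 in DMSO, grouped by the treatment in the sample labels. Per the study's methods and the labels, paired-end 150 bp reads were aligned to GRCz11 with STAR, reads with more than 1 place were removed, and genes were counted with featureCounts and processed with DESeq2. Versions, annotation release and strand setting are not given in the sources used here, so overlapping and antisense genes are uncertain. The library columns of the deposited table hold a signal, namely reads per gene after division by the size factor that the authors had estimated for that library. A further column holds the authors' mean. The authors' own comparison columns (log2 fold change, standard error, test statistic, p-value and adjusted p-value) were not used.

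Dividing by the smallest step of each library returned whole reads for 100% of values (tolerance 0.0001). Values were tested as log2(value + 1) with limma 3.58.1 in R 4.3.3 (mean-variance trend, Tan I over DMSO, Benjamini-Hochberg adjustment), over the 20836 genes with a mean of at least 10. A gene was called at an adjusted p under 0.05. DESeq2 1.42.0 and edgeR 4.0.16 were run on the recovered reads. The other alternatives were pseudocounts of 0.1 and 10, no filter and a mean of at least 100, 3 other scalings, no trend, sample quality weights, a replicate block, summed crygm2d copies and leaving out each library. The tests were tried on simulated data. P-values measure only the spread between libraries, which may be technical. Within each treatment, the test on read counts over genes found no library deposited more than once. Libraries of different treatments were not compared in that test.

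The members and the gene lists were chosen with earlier results of these data known. Genes given in full were both alpha crystallins and, per other class, the 3 with the most reads and those with the highest and lowest fold change. From each other list genes were eligible by their p, the smallest on either side of 0 coming first. The genes cryba2b, crygmxl1, crygmxl2, hspb2 and the second crygm2d17 row were added after their values were seen. Symbols were not unique, since 490 rows shared theirs with another row. Of the 40 crystallins, 38 were matched by symbol to RefSeq (GRCz12tu), which was used only for neighbouring genes.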

Additional observations from a re-analysis of the deposited data

How the results depend on the processing

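No crystallin was called under the other pseudocounts, filters and scalings, without the trend, with quality weights, with summed copies, or by DESeq2 or edgeR. Over all tested genes the count of 536 called was 165 without the trend, 984 with quality weights and 1093 (5.25%) with a replicate block, and ran from 213 to 709 with 1 library left out. Same-numbered libraries deviated with correlations of 0.08, -0.03 and 0.21. Tan I replicates 1 and 3 correlated best with the DMSO library of their own number. Tan I replicate 2 correlated best with DMSO replicate 1 (0.10). With this mixed picture the libraries were not treated as paired. Whether they share a clutch or a day is not given in the sources used here. With the replicate block, 2 of 40 crystallins were called by limma, beside 5.25% of all tested genes. They were crybb1l1 (log2 fold change -0.22, adjusted p = 0.0373) and crygmx (-0.31, adjusted p = 0.02002). The fibre gene mipb was called as well in the block fit (-0.41, adjusted p = 0.0159). With 1 library left out, 0 to 6 crystallins were called. The 6 were called without Tan I replicate 3, beside 3.4% of all tested genes in that fit. The log2 fold change of crygm2d8 was 0.0076 with quantile normalization and 0.0039 by edgeR. With 1 library left out, the log2 fold changes ran from -0.61 to 0.41 for cryaa, -0.29 to 0.16 for cryabb, -0.52 to 0.16 for crybb1, -0.56 to 0.15 for crybb1l1, -0.39 to 0.035 for crybb1l2, -0.16 to 0.47 for cryba1l2, -0.024 to 0.35 for crygm2d10, -0.011 to 0.31 for crygm2d17 ENSDARG00000109861, -0.19 to 0.12 for crygm2d8 and -0.35 to 0.31 for crygn2. All these highest values came without Tan I replicate 3, and the lowest without Tan I replicate 1 (cryaa and the crygm2d copies), Tan I replicate 2 (cryabb) or DMSO replicate 3 (the rest). Over the same omissions the values ran from -0.21 to 0.040 for cryba2b, -0.49 to 0.26 for crygmxl1, -0.067 to 0.52 for crygmxl2, -0.14 to 0.62 for bfsp2 and -0.072 to 0.78 for foxe3. The median of the 40 crystallins was -0.0090 with quality weights, 0.081 by DESeq2 and 0.087 by edgeR. The causes were not tested.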

Other observations

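The small heat shock proteins are the wider family to which the alpha crystallins belong. Of 10 listed genes of this family outside the crystallins, 8 were tested, 1 was higher and 0 lower by limma, beside 2.07% and 0.504% of all tested genes, and the median log2 fold change was 0.19. DESeq2 and edgeR each called the same 1 of 8, beside 3.13% and 2.69% of all tested genes. The called gene was hspb6, which encodes a small chaperone abundant in muscle. It had 802, 770 and 542 normalized reads in the Tan I libraries, against 451, 469 and 430 in the DMSO libraries, with no overlap (log2 fold change 0.63 ± 0.13 SE, limma adjusted p = 0.0197). The call was lost when any library other than Tan I replicate 3 was left out, with a lowest adjusted p of 0.0501 (without DMSO replicate 1) and a highest of 0.114 (without Tan I replicate 2), and without the mean-variance trend (adjusted p = 0.174). The related gene hspb8 had 937, 951 and 877 normalized reads in the Tan I libraries, against 712, 776 and 891 in the DMSO libraries, and did not pass (log2 fold change 0.22 ± 0.09 SE, limma adjusted p = 0.249).

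The inducible HSP70 genes, whose proteins refold damaged proteins under stress, were the highest fold changes in a list of 9 stress chaperones, of which 0 were called by limma, DESeq2 or edgeR and 3 had an unadjusted p under 0.05 by limma, beside 2.57% and 15.3% of all tested genes by limma. The gene hsp70.3 had 368, 513 and 160 normalized reads in the Tan I libraries, against 232, 119 and 52.3 in the DMSO libraries (log2 fold change 1.45 ± 0.46 SE, limma adjusted p = 0.138). The gene hsp70l had 198, 429 and 89.5 normalized reads in the Tan I libraries, against 120, 74.1 and 51.2 in the DMSO libraries (log2 fold change 1.34 ± 0.43 SE, limma adjusted p = 0.149). Replicate 3 was the lowest library of each treatment for both genes, as for the beta crystallins. By limma both passed without Tan I replicate 3, with adjusted p of 0.0132 for hsp70.3 and 0.00317 for hsp70l, and with the replicate block, with adjusted p of 0.000202 for hsp70.3 and 0.00461 for hsp70l. Without DMSO replicate 1 hsp70.3 passed as well, at 0.0288. Weighting the libraries by quality gave 0.0332 for hsp70.3 and 0.0349 for hsp70l. These closely related genes can exchange reads, so their single values are uncertain.

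Genes with crystallin in their name but outside the symbols that defined the 40 genes were also measured. Of 8 listed, 7 were tested, 0 were called by limma, DESeq2 or edgeR and 0 had an unadjusted p under 0.05 by limma, beside the same shares of all tested genes, and the median log2 fold change was 0.11. The gene crybgx had 275, 261 and 166 normalized reads in the Tan I libraries, against 207, 187 and 147 in the DMSO libraries (log2 fold change 0.36 ± 0.18 SE, limma adjusted p = 0.391). Tan I replicate 3 was the lowest of the 6 libraries for 0 of these 7 genes, beside 13.5% of all tested genes.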
